A study of Arabidopsis thaliana with 20 samples.

Results

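PSAN (AT5G64040) and PYG7 (AT1G22700) are 2 nuclear genes of Arabidopsis thaliana that serve photosystem I, the thylakoid complex that takes electrons from plastocyanin and passes them to ferredoxin in the light. They were chosen by name, with earlier results of these data known. A feature was taken where the platform annotation assigns it to exactly 1 gene and that gene is PSAN or AT1G22700. This gave 2 features, 85 for PSAN and 920 for PYG7, of 3439 on the array and of 692 with a single gene. Transcript levels were measured in total RNA of plants of the ecotype Wassilevskija, on 10 arrays titled hcf145, after a mutant with a defect in photosystem I assembly according to the labels, and on 10 arrays titled WT. The labels name no tissue, age, growth condition or number of plants, and no allele beyond the mutant's name. The source names of the mutant samples say gun5 in place of hcf145, and directions below refer to the samples by their titles.

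Photosystem I is built from plastid-encoded core proteins, among them the reaction centre proteins PsaA and PsaB, and from smaller subunits encoded in the nucleus. PSAN encodes one of the latter kind, a small protein on the lumenal side of the complex with a role in its interaction with plastocyanin. PYG7 is not a subunit. It is a thylakoid membrane protein with tetratricopeptide repeats, related to Ycf37 of cyanobacteria, and is needed for photosystem I to accumulate. In Arabidopsis, HCF145 acts in the stability of the plastid transcript that encodes PsaA and PsaB. HCF145 was the sole gene of no feature, so the mutation itself was not checked here.

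Values are given on 2 scales. The deposited intensity is linear, on a scale the authors set and that the labels do not describe, with an array mean near 1. The normalised log2 intensity was obtained by quantile normalisation, which gives all arrays the same distribution of values, and fold changes are differences of its means, hcf145 minus WT. The deposited intensities summed to 3319 to 3612 on the hcf145 arrays and 3476 to 3640 on the WT arrays. The hcf145 arrays held 120 to 248 exact zeros and the WT arrays 125 to 150. The 10 brightest features carried 15.6 to 21.0% of the signal on the hcf145 arrays and 11.02 to 13.9% on the WT arrays. The part of these differences in the results below was not tested. Arrays of adjacent number (1 with 2, 3 with 4, and so on) shared their deviations, with a consensus correlation of 0.661 over all tested features. The 20 arrays therefore hold 5 pairs per group, p-values that count all of them are too small, and each call is also given for the 5 against 5 averages of adjacent arrays. For the members alone, the correlation between adjacent arrays within a group (intraclass) differed by group. It was 0.95 for PYG7 and 0.79 for PSAN in WT, but 0.0662 and 0.125 in hcf145. Which arrays hold RNA of separate plants is not in the labels, so p-values measure the spread between arrays, which may be technical, and the number of arrays limits the precision of every value.

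Both genes were lower in hcf145 than in WT. PSAN averaged 1.34 ± 0.203 in hcf145 and 2.75 ± 0.467 in WT on the intensity scale (SD, n = 10 each), and PYG7 averaged 0.268 ± 0.128 in hcf145 and 0.923 ± 0.137 in WT (SD, n = 10 each). Both had a value above 0 on all 20 arrays and both passed the test. Of all 3287 tested features, 29.1% passed it at an adjusted p under 0.05 and 15.9% passed it as lower in hcf145. With adjacent arrays averaged, 7.39% passed and 3.83% passed as lower, and both genes were among the latter. In RNA of whole samples, fewer cells that express a gene and less of its RNA per cell cannot be told apart.

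The intensity of PSAN on the hcf145 arrays was 1.15 at the lowest, 1.28 at the median and 1.80 at the highest. On the WT arrays it was 2.06 at the lowest, 2.74 at the median and 3.47 at the highest. The groups did not overlap, although the highest hcf145 array, number 10, came within 1.14-fold of the lowest WT array, number 5. On the normalised log2 scale the fold change was -0.95 ± 0.12 (SE, limma adjusted p = 4.62e-06), which is 1.94-fold lower in hcf145. In the averages of adjacent arrays the SE was 0.19 (limma adjusted p = 0.0197). Leaving 1 pair of numbers out of the averages, which leaves 4 against 4, PSAN passed without arrays 9 and 10 (limma adjusted p = 0.0206) and not without any of the other pairs (limma adjusted p = 0.0598 to 0.110). Only 18 of the 3287 tested features had a smaller SE in the fit on 20 arrays, while 48 of the other single-gene features tested, 660 with PSAN, had a larger fall than PSAN. The call thus came with a moderate fold change and a small spread.

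The intensity of PYG7 on the hcf145 arrays was 0.0291 at the lowest, 0.323 at the median and 0.404 at the highest. On the WT arrays it was 0.737 at the lowest, 0.915 at the median and 1.13 at the highest. The groups were further apart than for PSAN, since the lowest WT array was 1.82 times the highest hcf145 array. The log2 fold change was -1.81 ± 0.39 (SE, limma adjusted p = 0.00168), or 3.51-fold lower in hcf145. In the averages of adjacent arrays the SE was 0.40 (limma adjusted p = 0.0246). Leaving 1 pair of numbers out of the averages, PYG7 passed without arrays 3 and 4 (limma adjusted p = 0.0461) and not without any of the other pairs (limma adjusted p = 0.0556 to 0.0933). It was the third largest fall among the 660 single-gene features tested, but 83.3% of all tested features had a smaller SE. On hcf145 arrays 7 and 10 PYG7 was near the bottom of the array, at 0.0291 and 0.0681. Only 4.78 and 5.96% of the tested features there were at or below it. With a constant of 0.105 added to all intensities before log2, which damps low values, the log2 fold change was -1.32 (limma adjusted p = 8.19e-05). The size depended on how the centre was taken: the ratio of the mean intensities, WT over hcf145, was 3.44, that of the medians was 2.83, and the difference of the median normalised log2 values was -1.20. With adjacent arrays as a random block, which sets the correlation of 0.661 for every feature, the call was lost (limma adjusted p = 0.0824). It was likewise lost when only the odd-numbered arrays were kept (limma adjusted p = 0.121).

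**Figure D1:**
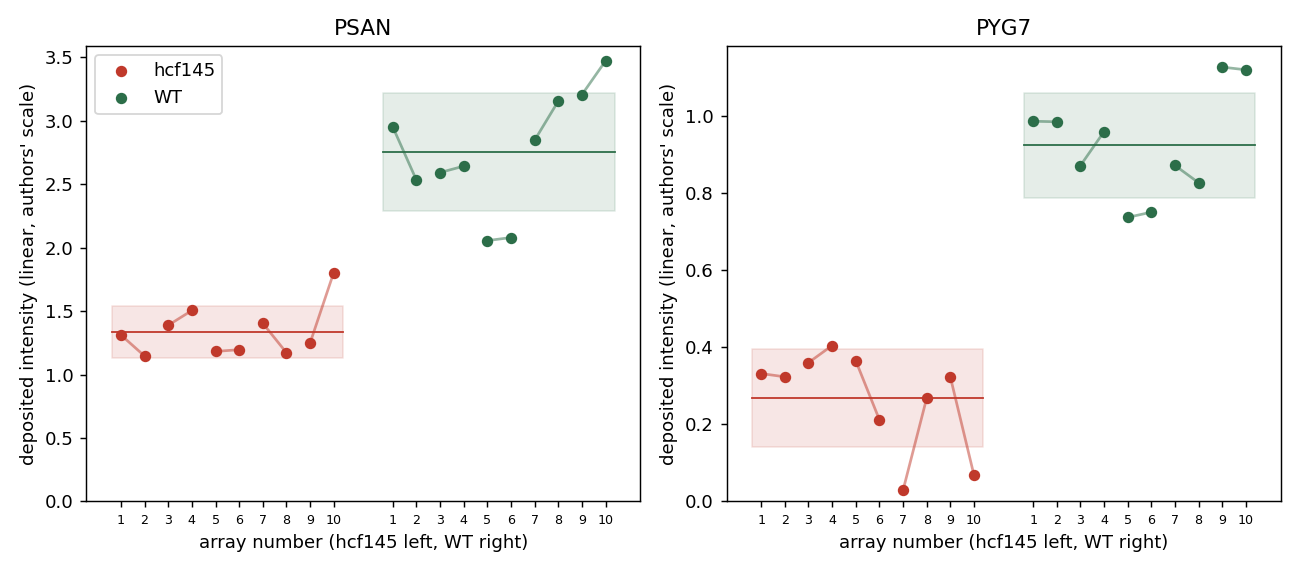
Deposited intensity (linear, authors' scale) of PSAN and PYG7 on each of the 10 hcf145 and 10 WT arrays by array number; thin lines join adjacent arrays, horizontal lines and bands are the group mean ± SD. All hcf145 points lie below all WT points for both genes, and PYG7 is lowest on hcf145 arrays 7 (0.0291) and 10 (0.0681).

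Because the arrays differ in their overall distribution, the position of each gene within its own array was also taken, as the percentage of the tested features that were at or below it in deposited intensity. PSAN stood between 83.4 and 89.2% on the hcf145 arrays and between 91.7 and 94.6% on the WT arrays. PYG7 stood between 4.78 and 57.6% on the hcf145 arrays and between 68.3 and 83.3% on the WT arrays. Quantile normalisation keeps the order of features within an array, so these positions largely restate the normalised values and are no separate check. They use no scaling between arrays, and by them no hcf145 array reached a WT array for either gene. Such separation downwards, with all hcf145 arrays below all WT arrays in normalised value, was found for 2.08% of the 2784 features with a value on all arrays. In the averages of adjacent arrays it was found for 5.37% of 3131 features.

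The scaling between arrays moved both values. Without scaling, the log2 fold changes were -1.04 for PSAN and -2.09 for PYG7, against a median of -0.32 over all features. With each array centred on its median they were -0.75 and -1.81. Averaged and median-centred, PSAN no longer passed (limma adjusted p = 0.101) and PYG7 did (limma adjusted p = 0.0302). WT arrays 9 and 10 had the lowest medians of their group, and after centring PSAN stood at 3.15 and 3.24 there, against 1.99 to 2.65 on the other WT arrays. The direction was the same for both genes in every fit that was run.

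**Figure D2:**
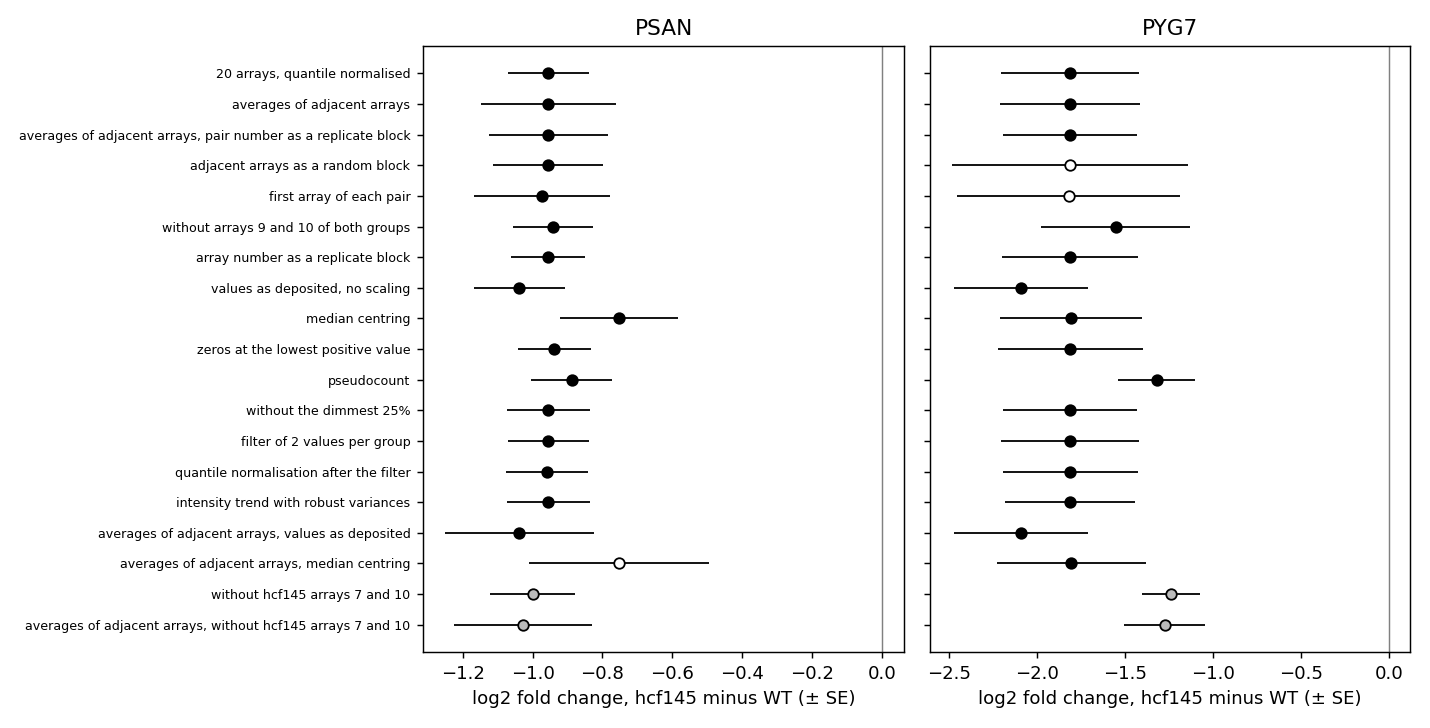
Log2 fold change (hcf145 minus WT, horizontal axis) of PSAN and PYG7 with its SE under ways of processing or modelling the arrays (rows). The rank-sum test (difference of medians) and the fits that leave out 1 array or 1 pair of averages are not shown. Black points had a limma adjusted p under 0.05, white points did not, and grey points leave out arrays chosen for their PYG7 values and carry no call; all points lie below 0, PSAN from -1.04 to -0.75 and PYG7 from -2.09 to -1.24.

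The spread of each gene over the arrays was compared between the groups. For PSAN the coefficient of variation of the intensity was 15.2% in hcf145 and 17.0% in WT, and for PYG7 it was 47.6% in hcf145 and 14.8% in WT. In absolute intensity the SDs of PYG7 were alike, 0.128 in hcf145 and 0.137 in WT. On the normalised log2 scale they were 1.28 in hcf145 and 0.276 in WT, since equal steps in intensity weigh more near 0. Over the averages of adjacent arrays, the mean absolute deviation of PYG7 from the group median was 0.69 in hcf145 and 0.18 in WT, a difference that was not past the threshold (exact permutation test over the 5 against 5 averages, two-sided p = 0.143). The difference of 0.51 became 0.71 without arrays 5 and 6 of both groups (exact permutation test, two-sided p = 0.0286). Leaving out any other pair of numbers gave 0.24 to 0.60 (exact permutation tests, two-sided p = 0.0857 to 0.40). It was 0.0162 without hcf145 arrays 7 and 10, which were left out for their PYG7 values. The mean absolute deviation of PSAN was 0.11 in hcf145 and 0.14 in WT (exact permutation test, two-sided p = 0.706). With 5 averages per group the median is itself an average, so each group always holds a deviation of exactly 0. The smallest p of the 5 against 5 test is therefore above the 0.00794 set by the number of arrangements, with little room below the threshold. With a pair of numbers left out no deviation is forced to 0, so the p-values of those fits are not on the same footing. Missing the threshold does not show that the spreads are equal.

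The wide spread of PYG7 in hcf145 lay between arrays of adjacent number. On the normalised log2 scale, PYG7 stood at -4.95 on hcf145 array 7 and at -1.87 on array 8, and at -1.49 on array 9 and -3.79 on array 10. The adjacent arrays thus differed by 3.09 and 2.298, where the median feature differed by 0.33 and 0.23. Differences larger than these were seen for 1.85% of features between arrays 7 and 8 and for 1.80% between arrays 9 and 10. The other hcf145 pairs differed by 0.03 to 0.80 and the WT pairs by 0.000687 to 0.18. PSAN differed between adjacent arrays by at most 0.46 in hcf145, on arrays 9 and 10, and by at most 0.25 in WT, on arrays 1 and 2.

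Arrays 7 and 10 of hcf145 did not stand apart in PSAN in the same way. PSAN was at 0.49 on array 7, within the range of the other hcf145 arrays, and at 0.79 on array 10, the highest of the group. Their exact zeros, 179 and 135, and their totals, 3435 and 3585, lay within the range of the other hcf145 arrays. Without these 2 arrays, a choice made after their PYG7 values were seen, PYG7 ran from 0.212 to 0.404 in intensity over the 8 hcf145 arrays, with a mean of 0.323 ± 0.0600 (SD, n = 8). The coefficient of variation was then 18.6%. With adjacent arrays averaged over what was left, the log2 fold change was -1.27 ± 0.23 (SE) for PYG7 and -1.03 ± 0.20 (SE) for PSAN. No p is given for these fits, because the arrays were left out for the outcome itself.

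PYG7 thus had the larger fold change of the 2, and the difference between the fold changes was tested as the difference of the normalised log2 values, PYG7 minus PSAN, on the same array. In the averages of adjacent arrays the fold change of PYG7 was lower than that of PSAN by 0.86 on the log2 scale, a value of -0.86 (exact permutation test, 5 against 5, two-sided p = 0.0476). This was 1 of 4 tests on the members' averages, and after Benjamini-Hochberg adjustment over the 4 it did not pass (exact permutation test, adjusted p = 0.190). Without hcf145 arrays 7 and 10 the difference was -0.25. In the values as deposited it was -1.05, with the smallest p that this test can give (exact permutation test, p = 0.00794, 0.0317 adjusted over the 4 tests). Centring each array on its median must give the same result, because the median cancels in a difference within the array. The difference was negative under every alternative run, and its size and call moved with the scaling and with those 2 arrays.

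The averages of adjacent arrays show the same by number. The hcf145 averages of PSAN were below the WT averages of the same numbers by 1.61-fold (arrays 3 and 4) to 2.35-fold (arrays 7 and 8). For PYG7 the differences were 2.37-fold for arrays 1 and 2, 1.75-fold for arrays 3 and 4, and 2.19-fold for arrays 5 and 6. They were 8.16-fold for arrays 7 and 8 and 7.23-fold for arrays 9 and 10. Each of these averages holds 1 low array, hcf145 array 7 (intensity 0.0291) or 10 (0.0681). On hcf145 arrays 8 and 9 PYG7 was within the range of the other hcf145 arrays. In the first 3 pairs of numbers the falls of PYG7 were near those of PSAN, which were 2.13-, 1.61- and 1.69-fold, and in the other two they were several times larger. Both genes had their smallest fall at arrays 3 and 4. Numbers are not known to pair arrays across the groups, so these are descriptions of 5 pairs of averages.

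**Figure D3:**
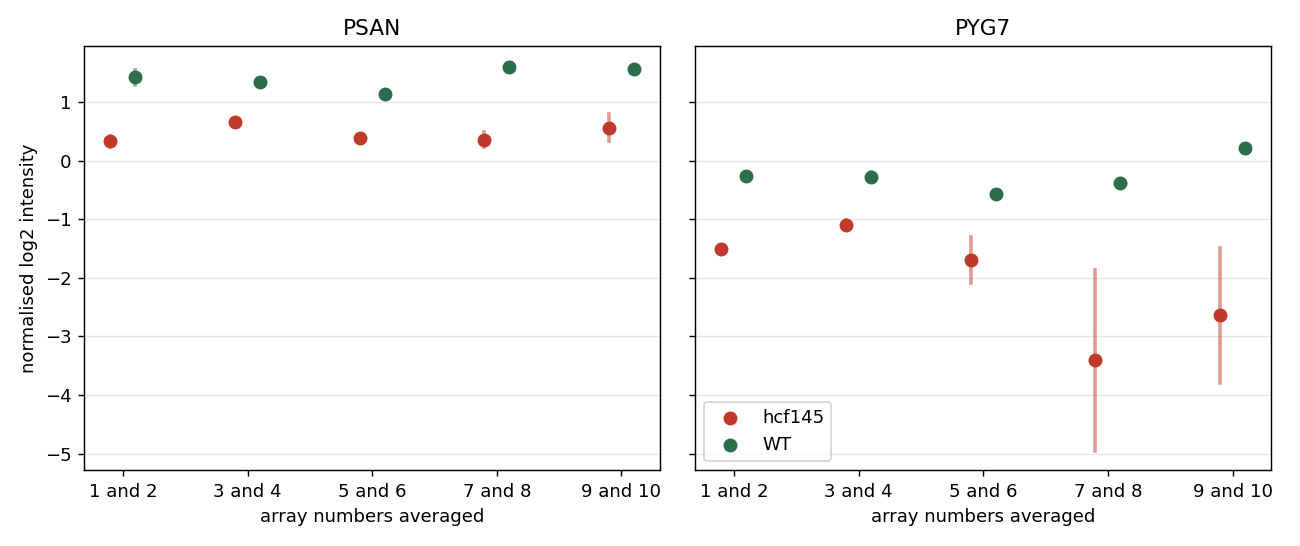
Normalised log2 intensity (vertical axis) of PSAN and PYG7 in the averages of adjacent arrays by array number (horizontal axis), hcf145 and WT; points are averages of 2 arrays and bars run between the 2 arrays. The hcf145 averages lie below the WT averages at every number, and the PYG7 bars of hcf145 are longest at arrays 7 and 8 (3.09) and 9 and 10 (2.298).

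Whether the 2 genes moved together within the groups was examined on deviations from the group means, because the groups form separate clusters. Over the 10 averages of adjacent arrays, Pearson's r was 0.34 (exact permutation within groups, p = 0.328) and Spearman's rho was 0.30 (exact permutation, p = 0.457). The p of r was 0.437 after Benjamini-Hochberg adjustment over the 4 tests. Without the 2 averages with the most extreme PSAN deviations, WT arrays 5 and 6 and hcf145 arrays 3 and 4, r was -0.09 and rho was -0.36 (exact permutation, p = 0.885 and 0.465). No relation was thus shown at this number of arrays. The extremes of PSAN went both ways. WT arrays 5 and 6 were the lowest WT average in both genes, and hcf145 arrays 3 and 4 were the highest hcf145 average in both. At the other extremes, WT arrays 7 and 8 were highest in PSAN (a deviation of 0.18) with PYG7 below its group mean (-0.13), and hcf145 arrays 1 and 2 were lowest in PSAN (-0.13) with PYG7 above its group mean (0.56).

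Within single groups, arrays of adjacent number are not independent, so the following are given with that limit. Over the 10 WT arrays r was 0.58 (permutation p = 0.0795) and rho was 0.47 (permutation p = 0.180). Over the 10 hcf145 arrays r was -0.25 (permutation p = 0.515) and rho was 0.12 (permutation p = 0.761). The negative sign in hcf145 came with array 10, which was highest in PSAN and second lowest in PYG7. Leaving out hcf145 arrays 7 and 10, chosen for their PYG7 values, r over the 10 averages was 0.77, a description only.

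**Figure D4:**
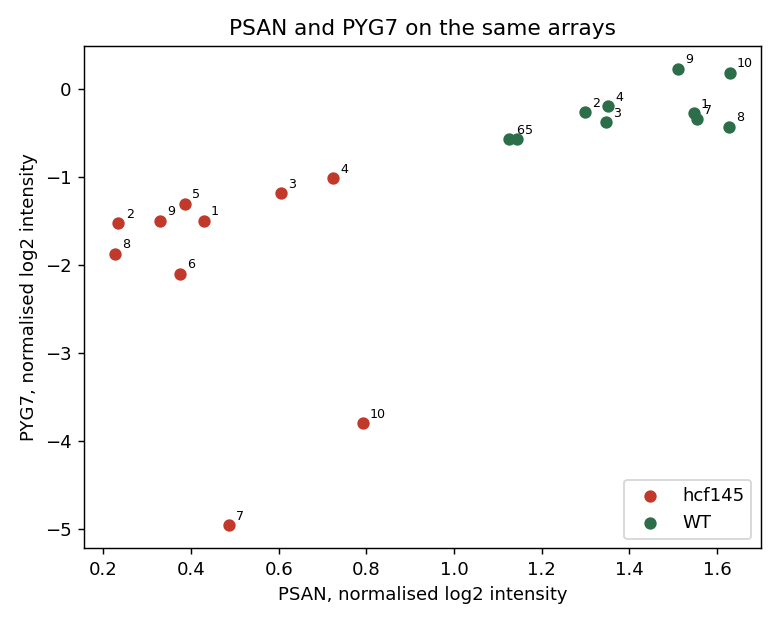
Normalised log2 intensity of PYG7 (vertical axis) against PSAN (horizontal axis) on the same arrays, 10 hcf145 and 10 WT, each point marked with its array number. The groups form separate clusters, and hcf145 arrays 7 and 10 lie at -4.95 and -3.79 for PYG7, below the -2.09 to -1.01 of the other hcf145 arrays.

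The genes whose values were most like those of the members were found by Pearson's r over the 20 arrays among 545 other single-gene features with a value on all arrays. Group, array pairs and normalisation are shared by all points, so r is a description of likeness. For PSAN the highest were AT4G31470 (r = 0.91), AT2G03390 (r = 0.89), AT4G13680 (r = 0.88) and CCL (AT3G26740, r = 0.86). All 4 had every hcf145 array below every WT array, against 2.08% of the 2784 features with a value on all arrays. They were picked for likeness to PSAN, which separated in the same way, so this follows largely from the choice. With the group means removed r fell to between -0.03 and 0.49, so the likeness lay mostly in the difference between the groups. AT4G31470 averaged 1.12 ± 0.233 in hcf145 and 3.36 ± 0.736 in WT (SD, n = 10 each).

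For PYG7 the highest were AT2G23160 (r = 0.85), AT4G31930 (r = 0.81), AT2G37000 (r = 0.80) and AT5G09820 (r = 0.78). With the group means removed, r was still 0.52 to 0.75 for them. In each of them the hcf145 and WT arrays overlapped. Each of the 4 was lower on hcf145 array 7 than on the other hcf145 arrays: AT2G23160 stood there at -5.87, against -3.22 to -1.51 on the 8 arrays other than 7 and 10, and AT4G31930 at -4.21, against -2.68 to -0.54. Likeness to PYG7 thus included that array. On array 10, AT2G37000 and AT5G09820 were only slightly lower than on those 8, at -2.60 and -2.46 against lowest values of -2.55 and -2.39. AT2G23160 and AT4G31930 stood within the range of those 8 on array 10, at -2.68 and -1.49. Between the members themselves r over the 20 arrays was 0.65, with 47 features more like PSAN than PYG7 was and 24 more like PYG7 than PSAN was.

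The rest of photosystem I was thinly covered. Of 12 nuclear genes of photosystem I subunits, PSAN was the only sole gene of a tested feature, and it fell. Of 12 factors for photosystem I assembly, its iron-sulfur clusters or the expression of its core proteins, 2 were measured: PYG7, which fell, and ATAB2 (AT3G08010), which acts in the translation of photosystem core proteins. ATAB2 was dim, at 0.0499 ± 0.0345 in hcf145 and 0.106 ± 0.0637 in WT (SD, n = 10 each), with 1 zero in each group included. Its log2 fold change, from the 9 values above 0 in each group, was -0.56 ± 0.45 (SE), short of the threshold (limma adjusted p = 0.363). Another of these factors occurs only on features with several genes and is not named. Neither the 6 antenna proteins of light-harvesting complex I nor the 12 electron donors, acceptors and regulators around photosystem I had a measured gene.

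Other thylakoid complexes gave few values to set beside PSAN and PYG7. Of 7 subunits of the NDH complex, which binds photosystem I for cyclic electron flow, 2 were measured and neither passed: NDHS with a log2 fold change of -0.02 ± 0.15 and NDHN with -0.26 ± 0.23 (SE, limma adjusted p = 0.919 and 0.423). Of 13 photosystem II genes 3 were measured and none passed in limma. Their log2 fold changes had both signs: 0.28 for PSBY, -0.45 for PSBW and -0.49 for PSB27. Their median was -0.45, against -0.05 over all tested features. PSBY, the one that was higher in hcf145, alone had an unadjusted limma p under the threshold (0.0265). Of 15 members of light-harvesting complex II, LHCB1.5, one of a family of nearly identical genes and so uncertain as a single gene, alone was measured and fell (log2 fold change -1.19, limma adjusted p = 0.00285); the call did not hold in the averages (limma adjusted p = 0.0840). None of 10 markers of root and seed was measured, so a difference in tissue could not be examined with them. Across these lists, PSAN and PYG7 were the genes whose fall passed with adjacent arrays averaged. Members and lists were chosen with earlier results of these data known, so this is a description and no independent finding. No test set them against the other thylakoid genes.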

How the data were processed

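Transcript levels came from 1 table of 20 arrays, 10 per group, with groups and array numbers taken from the sample titles. The authors deposited intensity values on a linear scale, a unit read from the values; their quantification and scaling are not given in the sources used here. Features were named through the platform annotation, and 690 of 692 single-gene features matched the RefSeq table of TAIR10.1, used for names only. Values at 0 were set missing, log2 was taken, all arrays were quantile normalised, and 152 features with fewer than 5 values in a group were left out, leaving 3287. hcf145 was compared with WT in limma 3.58.1 (R 4.3.3) with lmFit, eBayes and no term but group, Benjamini-Hochberg over all tested features and a threshold of 0.05. Averages of adjacent arrays, scalings, handling of zeros, filters, blocks and left-out arrays were alternatives. Fits and permutation tests were tested on simulated data. Permutation tests were exact for the averages and used 100000 resamples for the arrays. Named genes were the 2 members, the listed genes measured, and the 4 features most like each member. The members, lists and tests were chosen with earlier results of these data known. Same-number arrays had correlated deviations across the groups (0.07 to 0.36, over 0.1 for 8 of 10 numbers), and the main fit did not pair them. With the array number as a replicate block 1239 features passed, against 956 in the main fit. Sequences of the genes were not used here.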

Additional observations from a re-analysis of the deposited data

How the results depend on the processing

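The lower values of PSAN and PYG7 in hcf145 kept their direction under every alternative that was run. Leaving 1 array out, the log2 fold changes ran from -0.99 to -0.93 for PSAN and from -1.93 to -1.49 for PYG7, and both stayed past the threshold; 815 to 987 features passed, against 956 on all arrays. Leaving 1 pair of numbers out of the averages, they ran from -1.02 to -0.89 and from -2.06 to -1.51, and 24 to 308 features passed on fewer samples. Each member kept its call in 1 of these 5 fits and lost it in 4 (limma adjusted p up to 0.110 for PSAN and 0.0933 for PYG7). Averages of adjacent arrays gave 243 features, 500 with the pair number as a replicate block, 356 as deposited, and 191 both with median centring and without hcf145 arrays 7 and 10. A random block gave 425 and the first array of each pair 154. As deposited, 244 of the called features were higher and 935 lower in hcf145, against 433 higher and 523 lower after quantile normalisation. The call of PSAN also ended in the median-centred averages (-0.75). That of PYG7 ended with the random block (-1.81) and with the first array of each pair (-1.82); the cause was not tested. With the array number or the pair number as a replicate block, neither member's call changed (limma adjusted p = 6.87e-05 and 0.0199 for PSAN, 0.00361 and 0.0301 for PYG7). The difference of -0.86 between the fold changes had an exact p of 0.0625 with the pair number as a replicate block, the smallest that 5 pairs allow, was -0.25 without hcf145 arrays 7 and 10, and ran from -1.04 to -0.61 leaving 1 pair out. The same leave-outs gave -0.0872 to 0.0374 for the spread of PSAN, 0.24 to 0.71 (exact p = 0.0286 to 0.40) for that of PYG7, hcf145 minus WT, and 0.10 to 0.49 for the covariation. The covariation was -0.0893 with the 20 arrays counted separately and 0.77 without hcf145 arrays 7 and 10. Averages combined with a scaling, and fits without arrays 7 and 10, were chosen after seeing the data.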
